A study of Mus musculus with 4 samples.

Results

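The genes described here are 9 genes of the Notch pathway and of T cell commitment, namely the receptors *Notch1* and *Notch3*, their nuclear partner *Rbpj*, the target genes *Hes1*, *Dtx1* and *Nrarp*, and the T lineage transcription factors *Tcf7*, *Gata3* and *Bcl11b*. They were taken as every probe whose gene name on the array is one of these symbols, which gave 13 of 39429 probes. The measurements come from 4 single-dye Agilent arrays for the mouse, made from lineage-negative (Lin-) hematopoietic progenitor cells of the fetal liver (FL HPCs) from mid-gestation embryos labelled *Ebf1*-/-. The EMPTY group (2 arrays) was infected with the retrovirus MDH1-PGK-GFP, and the *Mir195* group (2 arrays) with the same virus carrying a segment around the microRNA gene *Mir195*, cloned from the human leukemia line RS4;11. All cultures received SCF, IL-7 and Flt3 ligand at 10 ng/mL each, and the methods give OP9 stroma cells as the general culture condition. The labels thus give the loss of *Ebf1*, an early B cell factor, for both groups, and the virus as the difference between them. Neither the labels nor the methods say whether the replicates came from separate embryos or cultures, so p-values measure only the spread between these arrays. All 4 arrays lay on 1 slide, EMPTY in the first positions and *Mir195* in the last, so position and virus cannot be told apart.

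Notch receptors are cut after contact with a ligand of the Delta or Jagged type on a neighboring cell, and the released intracellular part enters the nucleus. There it joins the DNA-binding protein RBPJ and coactivators of the Mastermind family and switches on targets such as *Hes1*. In lymphoid progenitors this signal starts the T cell program, in which TCF1 (the product of *Tcf7*) and GATA3 come first and BCL11B closes the access to other fates, while the same signal opposes the B cell fate. TCF1, GATA3 and BCL11B are also used by innate lymphoid cells. OP9 cells that were not given a Delta ligand are a standard stroma for B cell and not T cell culture.

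The microRNA introduced by the virus is shown here with its mouse sequence from RefSeq (GRCm38.p6), together with a pair of mouse microRNAs of the same seed family, because the seed is the part by which a microRNA pairs with its target RNAs. Bases 2 to 8, the seed, are in capitals and are the same letters in all 3. The genome positions are chr11:70235062-70235082 for mmu-miR-195a-5p, chr11:70234730-70234751 for mmu-miR-497a-5p and chr3:69009918-69009939 for mmu-miR-16-5p, the strand being + for each.
mmu-miR-195a-5p: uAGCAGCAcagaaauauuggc
mmu-miR-497a-5p: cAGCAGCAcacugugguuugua
mmu-miR-16-5p: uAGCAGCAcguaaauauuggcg
In the study's list of predicted mouse targets of miR-195a-5p, 2 of the 9 genes are found, *Gata3* and *Bcl11b*. It also holds 4 of the 60 other Notch pathway genes and 3 of the 46 early T lineage genes described below. Of these, *Lfng* had both *Mir195* arrays below both EMPTY arrays, and for the others the arrays overlapped. The share of predicted targets among all genes was not determined here, and an action of the microRNA on these genes was not tested.

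Each value below is the log2 signal of a probe minus the array's 75th percentile, so that 0 is the level of that percentile, and a difference of 1 is a factor of 2. The 2 values of a virus are given in the order of the replicate numbers. Values of different probes are not compared with each other, since probes differ in how brightly they bind. A probe was tested if it was well above background, as called by the scanner software, on both arrays of at least 1 virus. This held for 11 of the 13 probes, covering 8 of the 9 genes. The second probe of *Bcl11b* and the only probe of *Nrarp* were not tested. The 4 arrays had 23658 to 24671 probes well above background, and the only probe of *Ebf1* itself gave 1.85 to 2.03 on all 4 arrays with overlapping groups. This signal does not show the loss that the labels give, and whether the probe lies inside the disrupted part of the gene was not examined here. The number of arrays limits the precision, and an exact two-sided permutation test of 2 arrays against 2 cannot give a p under 0.333. RNA from whole cultures was measured, so that fewer cells of a type and less RNA per cell cannot be told apart.

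No member passed the test. With limma and the Benjamini-Hochberg adjustment over 23731 probes, 0 of the 11 probes had an adjusted p under 0.05, against 0% of all tested probes. At an unadjusted p under 0.05 there was 1 of 11, the detected probe of *Bcl11b*, against 8.34% of all tested probes. Both *Mir195* arrays lay below both EMPTY arrays for 2 probes (*Gata3* and *Bcl11b*), against 14.4% of all tested probes. Both lay above for 1 probe (of *Notch1*), against 23.4% of all tested probes. The *Mir195* mean was the lower for 6 of the 11 probes, against 47% of all tested probes. After scaling by the median it was the lower for 8 of the 11, against 66.9% of all tested probes. After the normexp background correction it was the lower for 6 of the 11, against 35.5%. These counts include the *Bcl11b* probe, which entered the test only through the EMPTY arrays and so could only come out lower.

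**Figure D1:**
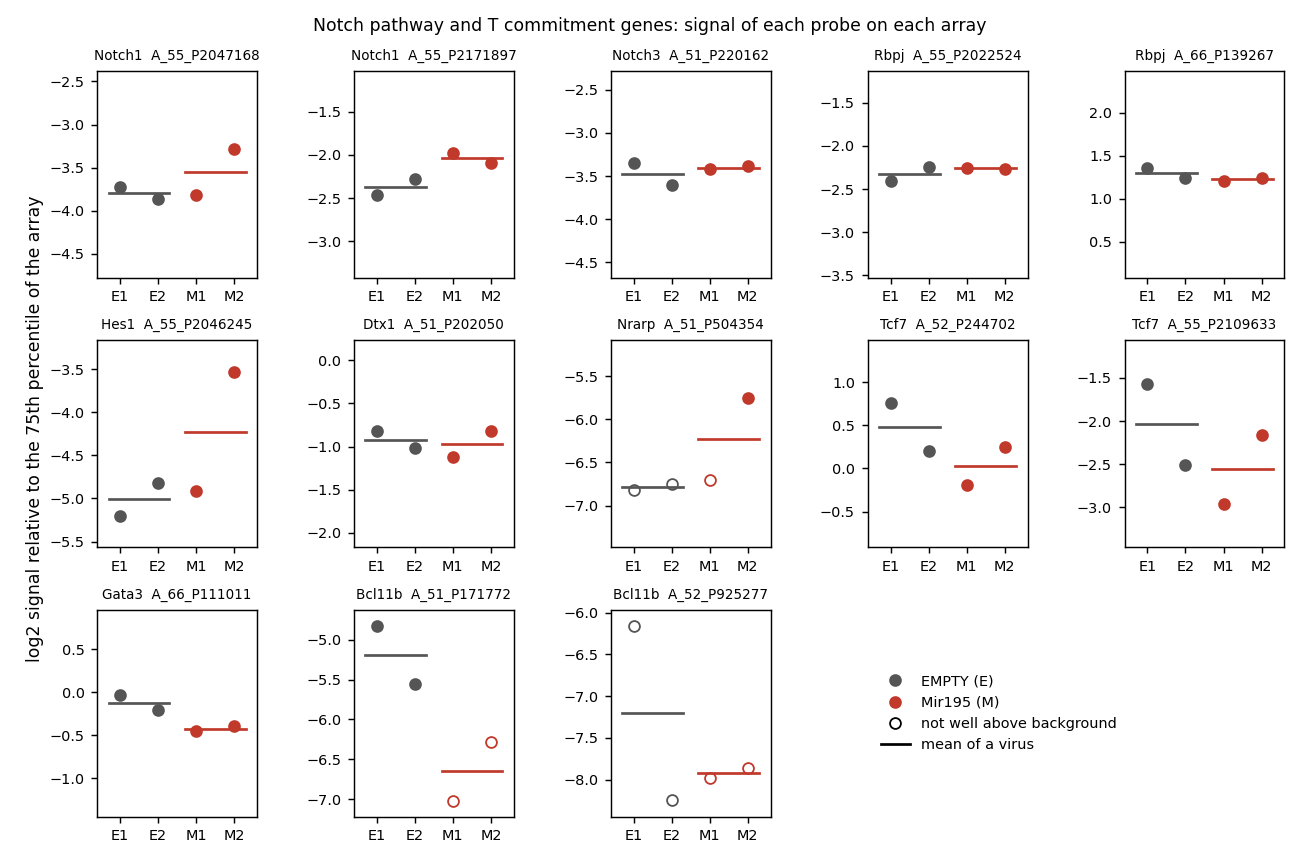
Log2 signal minus the array's 75th percentile (vertical axes, each panel with its own range) for the 13 probes on the EMPTY (E1, E2, grey) and *Mir195* (M1, M2, red) arrays. Lines are the means of 2 arrays and open circles mark arrays on which the probe was not well above background. *Gata3* and 1 *Notch1* probe separate the viruses among the probes detected on all 4 arrays, and *Hes1* and *Nrarp* stand out on M2.

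The receptors were measured with 3 probes. *Notch1*, the receptor that T cell progenitors need, has 2 probes. The first (A_55_P2171897) gave -2.47 and -2.28 with EMPTY and -1.98 and -2.09 with *Mir195*. Both *Mir195* arrays were the higher, and the groups did not overlap. The log2 fold change was 0.34 (SE 0.13, 95% interval -0.01 to 0.69, adjusted p = 0.609 from limma), and it ranged from 0.24 to 0.43 over 15 alternative settings. The second probe of *Notch1* (A_55_P2047168) gave -3.72 and -3.86 with EMPTY and -3.81 and -3.29 with *Mir195*. Here *Mir195* replicate 2 was high and replicate 1 lay between the EMPTY arrays. For this probe the difference was 0.24 (SE 0.21, 95% interval -0.30 to 0.79, adjusted p = 0.865 from limma), and it was -0.02 without *Mir195* replicate 2. The probes of *Notch1* thus had means on the same side and differed in whether the arrays separated.

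*Notch3*, a receptor that is raised by Notch signaling in developing T cells, gave -3.35 and -3.60 with EMPTY and -3.42 and -3.38 with *Mir195*. The *Mir195* arrays lay between the EMPTY arrays. Its log2 fold change was 0.07 (SE 0.14, 95% interval -0.29 to 0.44, adjusted p = 0.942 from limma), with a sign that turned under 4 of the 15 alternatives.

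*Rbpj*, the DNA-binding protein through which all Notch receptors act, had the smallest standard errors of the tested members. Its brighter probe (A_66_P139267) gave 1.36 and 1.24 with EMPTY and 1.21 and 1.25 with *Mir195*. Its dimmer probe (A_55_P2022524) gave -2.41 and -2.25 with EMPTY and -2.25 and -2.26 with *Mir195*. On both probes the groups overlapped. The log2 fold changes were -0.07 (SE 0.12, 95% interval -0.39 to 0.24, adjusted p = 0.930 from limma) and 0.07 (SE 0.12, 95% interval -0.26 to 0.39, adjusted p = 0.939 from limma). The intervals leave room for a change of up to about 0.39 in either direction.

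The 3 target genes differed in their pattern over the arrays. *Dtx1*, which encodes a ubiquitin ligase of the Deltex family and is a common readout of Notch activity in lymphocytes, gave -0.82 and -1.02 with EMPTY and -1.12 and -0.82 with *Mir195*. The groups overlapped over their whole range. Its log2 fold change was -0.05 (SE 0.16, 95% interval -0.47 to 0.38, adjusted p = 0.971 from limma).

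*Hes1*, a transcriptional repressor and the best known Notch target, gave -5.20 and -4.82 with EMPTY and -4.92 and -3.53 with *Mir195*. Only *Mir195* replicate 2 was high, and replicate 1 lay between the EMPTY arrays. As intensity, the *Hes1* spots read 30.7 and 36.4 with EMPTY and 29.9 and 79.7 with *Mir195*, and before background subtraction the spots had 2.29 to 3.29 times the signal of their surroundings. *Mir195* replicate 2 was 2.61-fold above replicate 1. The log2 fold change was 0.79 (SE 0.48, 95% interval -0.47 to 2.04, adjusted p = 0.793 from limma). Leaving out *Mir195* replicate 2 gave 0.09 and leaving out replicate 1 gave 1.48, each with a lone *Mir195* array. A single array thus decided the value. On *Mir195* replicate 2, *Hes1* lay 1.45 above the mean of the other 3 arrays, a distance that 99 of the 23731 tested probes (0.417%) reached or passed.

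*Nrarp*, a small ankyrin repeat protein that is induced by Notch and damps its signal, had the same array on top. It gave -6.81 and -6.75 with EMPTY and -6.71 and -5.75 with *Mir195*. The probe was well above background only on *Mir195* replicate 2, so that no fold between the replicates is given. With a filter that asked for 1 array above background, the log2 fold change was 0.55 (SE 0.35, adjusted p = 0.857 from limma). *Hes5*, another target of the same family as *Hes1* that was added after its values were seen, also had its highest value there, with -2.60 and -1.78 with EMPTY and -1.90 and -1.44 with *Mir195*. *Dtx1* on that array was at the level of EMPTY replicate 1. Of the other tested targets, *Ptcra* had its lowest value there, and *Myc* and *Il2ra* were highest on other arrays.

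Markers of the OP9 stroma were high on the same array. The summed level of the 18 genes of the stroma list, on the linear scale of the 75th percentile, was 13.7 and 14.7 with EMPTY and 12.8 and 23.6 with *Mir195*. *Mir195* replicate 2 was the highest array for 16 of the 18 genes, counted whether or not they were detected. Of the 18 genes, 13 were well above background on all 4 arrays, while *Dcn*, *Lum*, *Postn* and *Pdgfra* were so on none. Over all tested probes, which leave out undetected ones, *Mir195* replicate 2 was the highest array for 34.3%. The part of stroma RNA in the values of *Hes1*, *Nrarp* and *Hes5* was not tested.

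**Figure D2:**
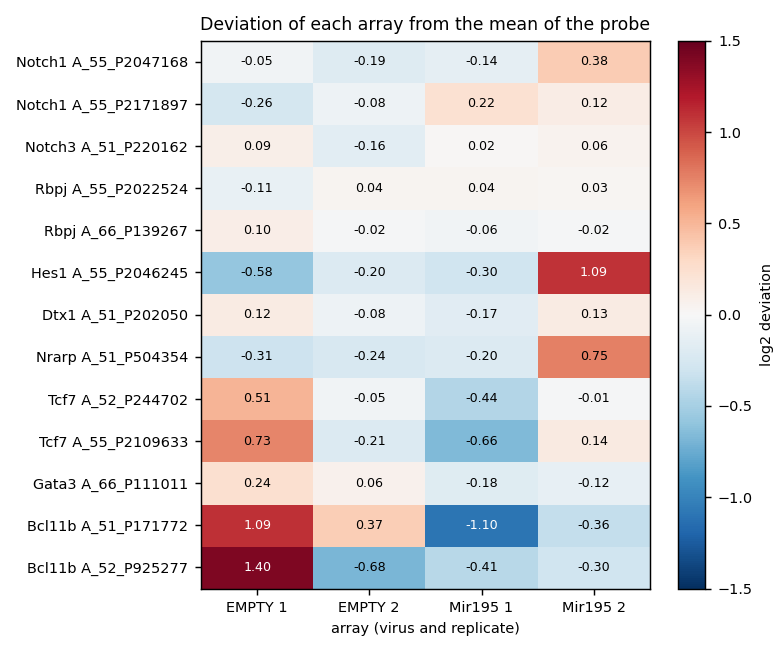
Deviation (log2) of each array from the mean of the 4 arrays for the 13 probes, in red above and in blue below that mean. *Hes1* and *Nrarp* are highest on *Mir195* replicate 2, and the 3 probes of *Tcf7* and *Gata3* are highest on EMPTY replicate 1 and lowest on *Mir195* replicate 1.

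The T lineage factors had 4 tested probes, and none of them passed the test. The *Bcl11b* probe was tested only through the EMPTY arrays. The other 3 probes, 2 of *Tcf7* and 1 of *Gata3*, each had a lower mean on the *Mir195* arrays.

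*Tcf7*, the first of these factors to appear after a Notch signal, has 2 probes. The brighter (A_52_P244702) gave 0.76 and 0.21 with EMPTY and -0.19 and 0.24 with *Mir195*. The dimmer (A_55_P2109633) gave -1.57 and -2.50 with EMPTY and -2.96 and -2.16 with *Mir195*. On both probes EMPTY replicate 1 was the highest and *Mir195* replicate 1 the lowest, and EMPTY replicate 2 and *Mir195* replicate 2 lay between them in the order opposite to the group means. The log2 fold changes were -0.45 (SE 0.26, 95% interval -1.12 to 0.21, adjusted p = 0.760 from limma) and -0.52 (SE 0.42, 95% interval -1.61 to 0.56, adjusted p = 0.845 from limma). Without EMPTY replicate 1 they were -0.18 and -0.05. Within the EMPTY group alone, replicate 1 was 1.47-fold and 1.91-fold above replicate 2 on these probes, so the spread between replicates was as large as the difference between the viruses.

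*Gata3*, a zinc finger factor of T cells and innate lymphoid cells, gave -0.03 and -0.21 with EMPTY and -0.45 and -0.39 with *Mir195*. Both *Mir195* arrays were the lower, and the groups did not overlap. For *Gata3* the log2 fold change was -0.30 (SE 0.13, 95% interval -0.64 to 0.03, adjusted p = 0.641 from limma), a change of -18.8%. It ranged from -0.40 to -0.21 over the 15 alternatives.

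*Bcl11b*, the zinc finger factor that fixes the T cell fate, has 1 probe that was detected (A_51_P171772). Its sequence is shown because the calls on *Bcl11b* rest on it. Read in the only frame without a stop codon, it holds the cysteine codons TGT and TGC with 2 codons between them (in capitals), a spacing found in zinc fingers.
A_51_P171772: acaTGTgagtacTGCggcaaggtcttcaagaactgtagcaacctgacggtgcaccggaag
This probe gave -4.83 and -5.56 with EMPTY and -7.02 and -6.28 with *Mir195*. As intensity these were 39.7 and 21.9 against 6.96 and 11.9, and the spot passed as well above background with EMPTY in both replicates and with *Mir195* in none. The EMPTY mean was 1.98-fold above a floor, the dimmest signal of any probe well above background on each *Mir195* array. The probe entered the test through the EMPTY arrays alone, so this ratio is no test of direction. The EMPTY arrays themselves differed by 0.73, and the floor is not specific to this probe. The fitted log2 fold change of -1.46 (SE 0.36, adjusted p = 0.530 from limma) rests on *Mir195* signals that were not well above background. It became -0.04 with the normexp background correction, which adds an offset of 50. The second *Bcl11b* probe (A_52_P925277) was well above background on no array, with -6.16 and -8.24 with EMPTY and -7.98 and -7.86 with *Mir195*, and gives no direction.

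Genes of NK and innate lymphoid cells also had a lower sum on the *Mir195* arrays. The summed level of 14 such genes, all of them well above background on all 4 arrays, was 47.9 and 42.3 with EMPTY and 35.0 and 39.1 with *Mir195*. EMPTY replicate 1 was the highest array for 10 of the 14 genes, against 17.3% of all tested genes, and both *Mir195* arrays were the lower for 6 (42.9%, against 14.7% of all tested genes). The *Mir195* mean was the lower for 12 of the 14 genes (85.7%, against 47.8% of all tested genes). Without EMPTY replicate 1 it was the lower for 8 (57.1%, against 53.1%). It was the lower for 10 without *Mir195* replicate 1 (71.4%, against 50.2%). Without *Mir195* replicate 2 it was the lower for all 14 (100%, against 40.3%). The part of innate lymphoid RNA in the values of *Tcf7*, *Gata3* and *Bcl11b* was not tested. For the other lineages the summed level was 24.3 to 26.6 for the B lineage list, 13.3 to 15.4 for the myeloid list (with *S100a8* and *S100a9* well above background on no array), 1.07 to 1.37 for the mast cell and basophil list (6 of 10 genes on no array, among them *Fcer1a* and *Mcpt8*), 1.96 to 3.65 for the erythroid list and 160 to 168 for the progenitor list.

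**Figure D3:**
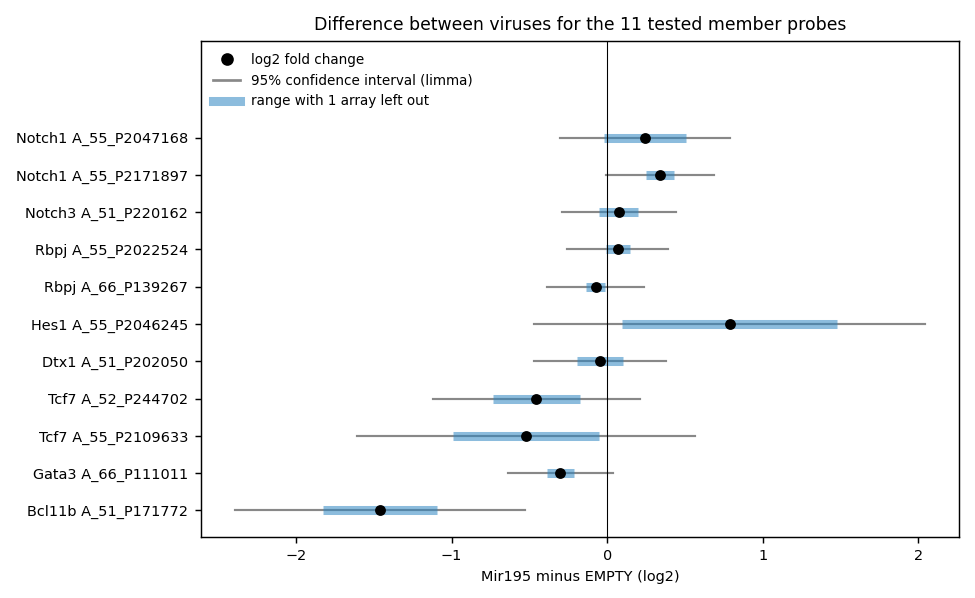
Log2 fold change of *Mir195* over EMPTY (horizontal axis) for the 11 tested probes, with the 95% interval from limma as a thin line and the range over the 4 fits with 1 array left out as a thick bar. The interval leaves out 0 only for *Bcl11b*, whose *Mir195* signals are not well above background. The bar of *Hes1* runs from 0.09 to 1.48.

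The other genes of the Notch pathway were followed as a list of 60 genes, each by its brightest tested probe. Of these, 54 were tested, and with limma 0 passed and 1 had an unadjusted p under 0.05, against 8.34% of all tested probes. The *Mir195* mean was the higher for 29 genes and the lower for 25, and the median log2 fold change was 0.01, the same as over all 19042 tested genes. Of the genes whose arrays did not overlap, 8 were higher and 5 lower with *Mir195*, which is 14.8% and 9.26%, against 23.1% and 14.7% of all tested genes.

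Of the ligands, *Dll1*, *Dll3* and *Jag2* were tested, and *Dll4* and *Jag1* were not. *Dll1* gave -2.41 and -3.45 with EMPTY and -3.48 and -2.57 with *Mir195*, with a spread within each virus far above its log2 fold change of -0.09. The log2 fold change was -0.11 for *Dll3* and -0.22 for *Jag2*, with overlapping arrays. *Notch2*, the receptor that marginal zone B cells need, gave 2.42 and 2.63 with EMPTY and 2.61 and 2.59 with *Mir195*. Its log2 fold change was 0.07, and that of *Notch4* was 0.05.

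The genes that cut the receptor (furin, the ADAM proteases and the gamma-secretase subunits) had 9 tested members with log2 fold changes from -0.19 to 0.04, and the 11 corepressor genes ranged from -0.14 to 0.07. Of the 12 trafficking and ubiquitin ligase genes, 5 had both *Mir195* arrays on top (41.7%, against 23.1% of all tested genes), a difference that was not tested. Among them were *Numb*, which encodes an inhibitor of Notch, with a log2 fold change of 0.31 (SE 0.18, adjusted p = 0.790 from limma), and *Mib1*, which encodes a ligase that activates Notch ligands, with 0.24 (SE 0.14, adjusted p = 0.793 from limma). The coactivator *Maml3* had a log2 fold change of 0.26 (SE 0.13, adjusted p = 0.698 from limma). On the lower side without overlap were *Neurl1a*, which encodes another ligand ligase, with -0.42, and *Lfng*, which encodes a glycosyltransferase that tunes the receptor's choice of ligand, with -0.29. The target *Ptcra*, which encodes the pre-T cell receptor alpha chain, had -0.34 with both *Mir195* arrays the lower. The other targets *Hes5* and *Il2ra* pointed in opposite directions, with 0.52 and -0.58 and with overlapping arrays. *Myc* had 0.13.

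The early T lineage list held 46 genes, the partner factors of *Tcf7*, *Gata3* and *Bcl11b* and the surface and signaling genes of early T cells, of which *Il2ra* and *Ptcra* are also on the Notch list. Of 45 tested genes, 0 passed with limma and 9 had an unadjusted p under 0.05, against 8.34% of all tested probes. Over the alternatives that kept every array, that count ranged from 6 with the replicate number as a block to 13 with the crossed pairing. Both of these fits had 2202 of all 23731 tested probes at an unadjusted p under 0.05, against 1979 in the main fit. With the normexp correction the list had 12 such genes, and 3754 of all tested probes were under 0.05. Fits with an array left out are not counted here, since a group then held a lone array. The *Mir195* mean was the lower for 31 genes (68.9%, against 47.8% of all tested genes) and the higher for 14. The median log2 fold change was -0.07. Both *Mir195* arrays were the lower for 12 genes (26.7%, against 14.7% of all tested genes) and the higher for 7 (15.6%, against 23.1%). Without *Mir195* replicate 2 the mean was the lower for 23 of 45 genes (51.1%, against 40.3% of all tested genes). The median was then -0.01, against 0.03 over all tested genes. The mean was the lower for 30 genes without EMPTY replicate 1 (66.7%, against 53.1%). It was the lower for 31 without *Mir195* replicate 1 (68.9%, against 50.2%).

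The list's largest differences without overlap were in genes of the T cell surface. *Cd8a*, a coreceptor chain, gave -3.42 and -3.39 with EMPTY and -4.35 and -4.28 with *Mir195*, a log2 fold change of -0.91 (SE 0.12, adjusted p = 0.530 from limma). *Cd3g*, a subunit of the T cell receptor complex, gave -0.53 and -0.96 with EMPTY and -1.54 and -1.56 with *Mir195*, a log2 fold change of -0.80 (SE 0.18, adjusted p = 0.530 from limma). The kinase gene *Txk* followed with -0.77 (SE 0.20, adjusted p = 0.530 from limma). In the other direction were the recombinase genes *Rag1* (0.52, SE 0.16) and *Rag2* (0.32, SE 0.12), which T and B cell progenitors share, and *Cd5* (0.31, SE 0.12), with adjusted p of 0.536, 0.591 and 0.615 from limma.

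**Figure D4:**
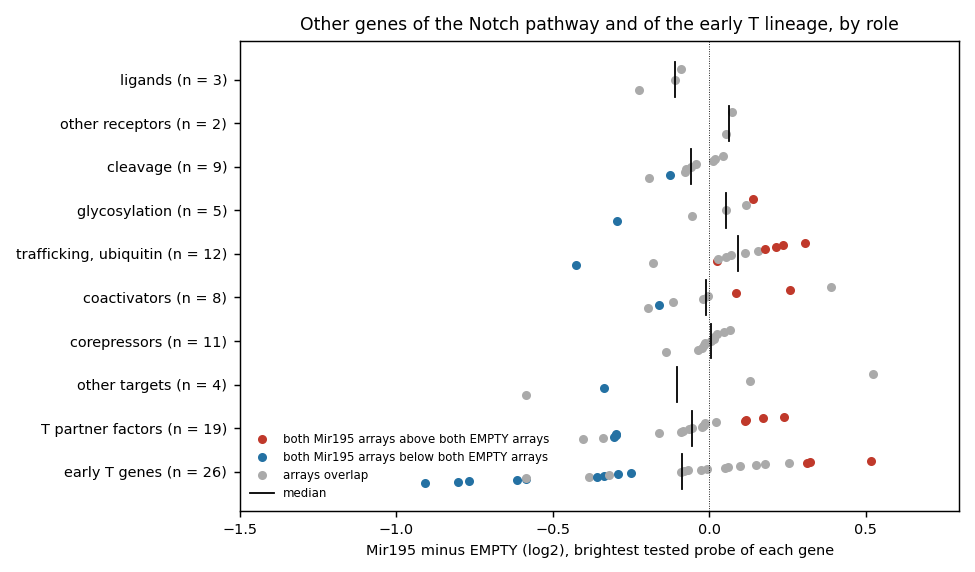
Log2 fold change of *Mir195* over EMPTY (horizontal axis) for each tested gene of the Notch list and of the early T lineage list, in rows by role, with the median of each row as a black line. Points are red or blue where the *Mir195* arrays were both above or both below the EMPTY arrays and grey where the arrays overlapped. The corepressors lie within -0.14 and 0.07, and the early T genes reach from -0.91 to 0.52.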

How the data were processed

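Total RNA of 4 samples was labelled with Cy3 and hybridised to Agilent Whole Mouse Genome arrays. The authors deposited, for each spot, the scanner intensity after subtraction of background and a spatial trend (Agilent Feature Extraction 11.5.1.1 per the submitters' processing notes, although the file headers name an older version). A second deposited file holds log2 values normalized to the 75th percentile. It was used as an alternative, and its per-array medians were -4.45 to -4.29 and its scale and direction matched the scanner values (r of 0.999 or more). Groups were taken from the sample titles.

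Outlier spots (21 to 65 of 43020 per array) were left out, no spot was saturated, and spots of a probe were averaged on the log2 scale. The 75th percentile of the array (an intensity of 902 to 1127) was subtracted. The test was limma's (version 3.58.1, lmFit followed by eBayes, with R 4.3.3, files read with version 1.17.8 of data.table), two-sided, with the Benjamini-Hochberg adjustment and a threshold of 0.05. The procedure was tested on simulated data. Gene symbols came by accession from RefSeq GRCm38.p6 for 26055 probes and otherwise from the array, whose genome build is not given in the sources used here.

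All 9 members were named, and of each list the 3 genes most raised and the 3 most lowered among those well above background on all 4 arrays without overlap. *Ebf1*, the ligands and *Notch2* were named with their values. *Notch4*, *Hes5*, *Il2ra* and *Myc* were added after their values were seen. The members and the lists were chosen with earlier results of these data known. Alternatives were the normexp correction, quantile, median and detected-probe scaling, the authors' table, other filters on dim probes, eBayes with trend, the replicate number as a block, and each array left out. The methods' t-test was applied to log2 ratios of same-numbered replicates, a pairing that the methods do not state.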

Additional observations from a re-analysis of the deposited data

How the results depend on the processing

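No member probe passed the threshold under any alternative but 1, *Hes1* without *Mir195* replicate 1, so that the count of member probes ranged from 0 to 1 with an array left out. The count over all tested probes was 0 and became 3 with median scaling and 5 with the replicate number as a block. With 1 array left out it ranged from 0 to 904, reaching 904 without *Mir195* replicate 1. The early T lineage list ranged from 0 to 1 in these fits (*Cd8a*, without *Mir195* replicate 1), in which the lone array was assumed to vary like the other group. Of 164 member values under the 15 alternatives, 10 had the opposite sign. These were *Notch3* with quantile normalization (-0.0199), median scaling (-0.0233) and the authors' table (-0.0024) and without EMPTY replicate 2 (-0.0520). The dimmer *Rbpj* probe turned with quantile normalization (-0.0113), with median scaling (-0.0283) and without EMPTY replicate 1 (-0.0092). *Dtx1* turned without EMPTY replicate 1 (0.0555) and without *Mir195* replicate 1 (0.1036), and *Notch1* A_55_P2047168 without *Mir195* replicate 2 (-0.0185). The cause was not tested. With an array left out, the second *Notch1* probe ranged from -0.0185 to 0.5062, *Notch3* from -0.0520 to 0.2008, the dimmer *Rbpj* probe from -0.0092 to 0.148 and *Dtx1* from -0.1958 to 0.1036. The deviations of same-numbered arrays correlated at -0.101. With 2 arrays per virus this cannot decide whether the numbers pair the samples. The block changed no call of a member. A crossed pairing, chosen after seeing the data, called 0 of all tested probes. The methods' t-test was run here with same-numbered replicates as pairs, a pairing that the methods do not state. It called 1134 of the 23731 tested probes at the methods' threshold of 0.05. None of the 11 member probes was among them, and 0 of all tested probes were called after Benjamini-Hochberg. *Hes1*, *Nrarp* and *Bcl11b* lie close to background, which limits what their values show.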
